A study of Drosophila melanogaster with 3 samples.

Results

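The regions described here are the stretches of transcribed sequence in which Aubergine (Aub) was called at more than 1 place in every library of the study. Called intervals of 3 libraries were pooled, those lying within 50 nt of each other on one strand were joined, and a region was kept when each library had 2 or more intervals in it. This gave 281 regions out of 26114 joined regions (1.08%), assigned to 250 of the 6502 genes with any interval. The regions were chosen by their interval counts in the 3 libraries, so these counts are given as a description. Position along the gene and the look-up in a library left out were not part of the choice.

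Aub is a Piwi-family Argonaute protein. It carries piRNAs, small RNAs that guide it to complementary transcripts, and is known for slicing transposon RNA in the Drosophila germline and for binding messenger RNAs in the embryo and in germline stem cells. Individual-nucleotide crosslinking and immunoprecipitation (iCLIP) uses ultraviolet light to link a protein to RNA in direct contact, and the RNA recovered with the protein is sequenced. A transcript touched at many places gives a run of intervals, and a run that returns in each library marks a stretch that was recovered repeatedly.

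The 3 libraries form a single group of cultured Drosophila melanogaster germline stem cells with one shared genotype. They had 1 copy of UASp-GFP-aub (UASp-GFP-aub/+), and a chromosome labelled bam∆86hs-bam over one labelled nos-gal4 bam∆86. The bam∆86 allele of bam, a gene that stem cell progeny need to differentiate, was thus on both chromosomes, and tagged Aub came from a transgene under the germline driver nos-gal4. Ultraviolet light at 254 nm was given at 150 mJ/cm2 to dishes of 150 mm, and no drug was used. Separate cultures are not stated, so the spread between libraries may be technical, and no library without crosslinking or of unselected RNA was analysed here.

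The libraries differed widely in size. Replicate 1 held 3986 distinct intervals, replicate 2 held 35824 and replicate 3 held 11685. The files give each interval a score of 0, so depth in reads is unknown and an interval has no height. Every interval has a FlyBase gene ID and no gene name. RefSeq names, from Release 6, were at hand for 51 of the 6502 IDs and for only 2 of the 250 genes of the regions, metro and Swim, so the other genes appear under their IDs. Germline and somatic marker genes could not be matched, and the labelled cell type was therefore not checked. Coordinates are 1-based on dm3, the build in the submitters' processing notes. No sequence of that build was at hand, so base composition, exons and untranslated regions were not analysed here.

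The regions were longer than most joined regions. They ranged from 64 to 658 nt, with a median of 252 nt and quartiles of 179 and 337 nt. Together they made up 6.98% of the summed length of all joined regions. In genes with 2 or more joined regions, the median length was 258.5 nt for the repeated regions and 25 nt for all regions. Of the 281 regions, 18 were 500 nt or longer and 11 were under 100 nt. The 943 regions that had intervals in every library but fell short of the rule had a median length of 121 nt. Length grows with the number of joined intervals, so the gaps between these medians follow in part from the rule.

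The number of intervals per region followed the size of the library. In replicate 1 it ranged from 2 to 8 with a median of 2, in replicate 2 from 2 to 19 with a median of 5, and in replicate 3 from 2 to 12 with a median of 3. Replicate 1 stood at the minimum of 2 in 150 regions, replicate 3 in 102 and replicate 2 in 38. Replicate 1, the smallest library, thus most often decided whether a region was kept. Just inside the threshold were 185 regions with exactly 2 intervals in some library, with median counts of 2, 4 and 2 in replicates 1, 2 and 3 and a median length of 215 nt. Just outside were 388 regions with 1 interval in a single library and 2 or more in the others, and this library was replicate 1 in 284, replicate 3 in 88 and replicate 2 in 16. Their median counts were 1, 4 and 2 and their median length 175 nt. At the other end, 96 regions had at least 3 intervals in every library, 39 had at least 4 and 12 had at least 5.

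**Figure D1:**
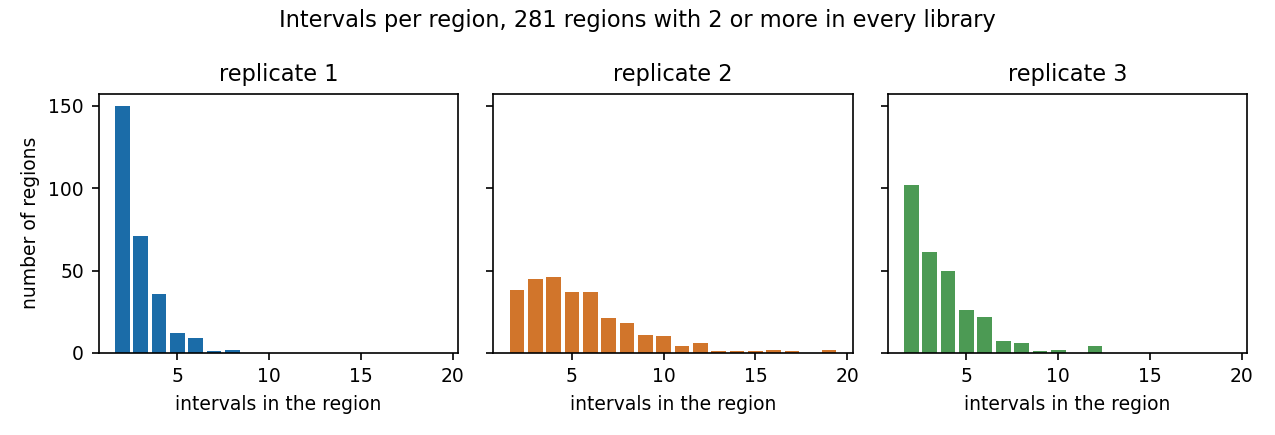
Number of regions (vertical axis) by intervals per region (horizontal axis) in each library, over the 281 regions. The bar at 2 intervals holds 150 regions in replicate 1, 38 in replicate 2 and 102 in replicate 3, and only replicate 2 reaches 19.

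The regions contained 794 intervals of replicate 1 (19.9%, 95% Wilson interval 18.7 to 21.2), 1537 of replicate 2 (4.29%, 4.09 to 4.51) and 1023 of replicate 3 (8.75%, 8.26 to 9.28). The mean share was 10.99% ± 8.05 (SD, n = 3). The rule alone requires 562 intervals of each library, which is 14.1% of replicate 1, 1.57% of replicate 2 and 4.81% of replicate 3, so the order of the shares largely follows from it. By covered nucleotides the shares were 20.2%, 7.96% and 9.27%. The Wilson intervals take called intervals as independent and allow for counting error alone.

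A gene's other intervals were not confined to its repeated region. In the genes concerned, the regions held 54.3% of the intervals of replicate 1, 30.4% of those of replicate 2 and 42.2% of those of replicate 3. FBgn0032694 on 2L was the extreme among genes with at least 10 intervals. Its region from 18617340 to 18617694 took all 6 of its intervals in replicate 1, 6 of 7 in replicate 2 and all 5 in replicate 3 (94.4% in all), although its bound span measured 44372 nt. FBgn0053144 on 2R had 93.8% of its intervals in a region of 371 nt at one end of a span of 41493 nt, and FBgn0036043 on 3L had 92.9% in a region of 571 nt out of 21807 nt. In these genes a single short stretch thus held nearly every call. The other genes of this rank were FBgn0010877 (90.0%), FBgn0003391 (88.0%), FBgn0010762 (85.7%), metro (83.3%), FBgn0086698 (81.8%), FBgn0033649 (81.3%) and FBgn0027548 (80.6%).

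Within the regions the libraries met on common nucleotides in most cases. At least 1 nucleotide was covered by every library in 247 of 281 regions, and none in the other 34. The median region had 24 nt covered by every library (9.27% of its length), 79 nt covered by at least 2, and 59 nt covered by none. Coverage by single libraries was 21.9% of the region's length in replicate 1, 69.9% in replicate 2 and 28.9% in replicate 3 (medians). The regions were chosen for holding intervals of every library, and replicate 2 covered most of their length. Common nucleotides were thus in part built in, and their number was not compared with that of other regions. The most extensive common core, 119 nt, lay in the region of FBgn0263865 from 12625804 to 12626141 of X, with 6, 7 and 7 intervals in replicates 1, 2 and 3. The centre of the common nucleotides lay at a median of 0.49 of the region's length from its 5′ end. This median shows no lean to either end, and does not place them in the middle of each region.

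**Figure D2:**
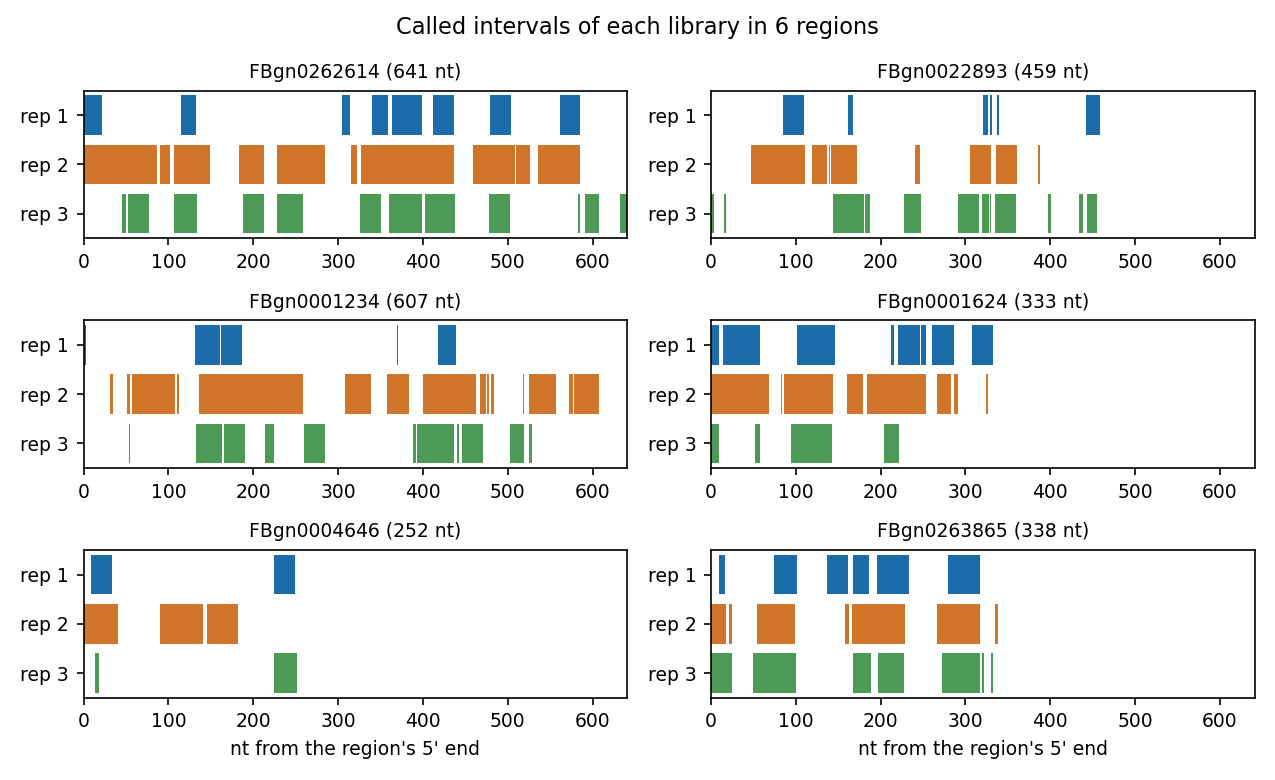
Called intervals of replicates 1, 2 and 3 (rows) along 6 regions, as distance in nt from the region's 5′ end. They are the 4 regions that held the highest mean share, a region of median length with 2, 3 and 2 intervals in replicates 1, 2 and 3 (FBgn0004646), and the region with the most nucleotides covered by every library (FBgn0263865, 119 nt). Replicate 2 covers 71.6% of the region of FBgn0262614, 62.9% of that of FBgn0001234 and 72.4% of that of FBgn0001624, but 37.5% of that of FBgn0022893.

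Neighbouring intervals of a library were often split by gaps of a few nucleotides, and the region counts depend on how such pieces are read. When intervals of a library separated by at most 5 nt were counted once, 244 regions still had 2 in every library. With gaps of at most 10 nt the number was 215, and with gaps of at most 25 nt it was 150. Narrow calls also contributed. Intervals under 5 nt made up 9.32%, 22.8% and 14.2% of those inside the regions in replicates 1, 2 and 3, against 6.23%, 24.4% and 8.79% outside. The rule thus admits regions in which 1 broken block supplied both intervals.

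Intervals inside the regions were wider mainly in replicate 2. The median width was 25 nt inside and 25 nt outside in replicate 1, 25 and 13 nt in replicate 2, and 24 and 25 nt in replicate 3. The mean difference in medians was 3.67 ± 7.23 nt (SD, n = 3), which is smaller than its spread (exact two-sided sign-flip permutation test over libraries, p = 1). It was -0.50 nt without replicate 2. Intervals of 50 nt or more made up 2.02%, 25.4% and 4.50% inside, against 0.345%, 4.49% and 0.441% outside. Intervals of exactly 25 nt were scarcer inside, at 33.1%, 5.14% and 21.9% against 56.7%, 9.15% and 49.9%. Each library thus had a smaller share of calls of exactly 25 nt and a larger share of wide ones within the regions.

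Single edges coincided between libraries more often inside the regions than elsewhere, whereas coincidence of both edges did not in every pair. Of the 794 intervals of replicate 1 inside, 67 shared their exact 5′ edge with an interval of replicate 2 (8.44%), against 138 of 3192 outside (4.32%). For replicate 1 in replicate 3 the shares were 7.05% and 2.07%, and for replicate 3 in replicate 2 they were 6.55% and 3.80%. The mean inside was 7.35% ± 0.978 (SD, n = 3 pairs that share libraries). At 3′ edges the shares inside were 7.56%, 9.07% and 6.45%, against 4.61%, 2.35% and 4.40% outside. Both edges of an interval coincided in 1.26%, 1.64% and 0.489% inside, against 0.815%, 0.752% and 0.563% outside, so replicate 3 in replicate 2 went the other way. The regions were selected for containing intervals of every library, so more chances for coincidence were built in, and the difference was not tested.

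The regions lay mostly near the 5′ end of the stretch of the gene in which Aub was called. This stretch, the bound span, runs from the first to the last interval of a gene over the 3 libraries, read in the direction of the deposited strand, and it includes introns. A position of 0 is its 5′ end and 1 its 3′ end. It need not match the annotated gene, and its ends are set by intervals, those of the regions included. Of the 276 regions in genes with 2 or more joined regions, 178 had their midpoint below 0.2 (64.5%) and 55 had it at 0.8 or above (19.9%). Among all joined regions of such genes these shares were 32.2% and 44.3%. Among the 2445 other regions of the same genes they were 22.9% and 50.2%. The median position was 0.026 for the repeated regions and 0.80 for the other regions of their genes. In nucleotides, the repeated regions began a median of 334.5 nt from the 5′ end of the span, and 148 of 276 (53.6%) began within 500 nt of it, against 11.04% of the other regions.

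The same held when single intervals were counted in each library. In replicate 1 the median position was 0.024 for the 783 intervals inside the regions and 0.67 for the 668 intervals elsewhere in the same genes. In replicate 2 the medians were 0.028 and 0.88, and in replicate 3 they were 0.025 and 0.75. The difference was -0.65, -0.85 and -0.72 in replicates 1, 2 and 3, with a mean of -0.74 ± 0.10 (SD, n = 3), larger than its spread. The exact two-sided sign-flip permutation test over libraries gave p = 0.25, the smallest value that 3 libraries allow. The share of intervals below 0.2 was 66.2% ± 1.15 inside and 26.2% ± 3.25 elsewhere, and at 0.8 or above it was 19.3% ± 1.18 and 48.3% ± 7.47 (SD, n = 3). The ranges of the libraries did not overlap in either case. By the rule, however, every region holds intervals of all 3 libraries. Their positions inside thus describe the same regions, and the agreement between libraries there is largely built in.

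**Figure D3:**
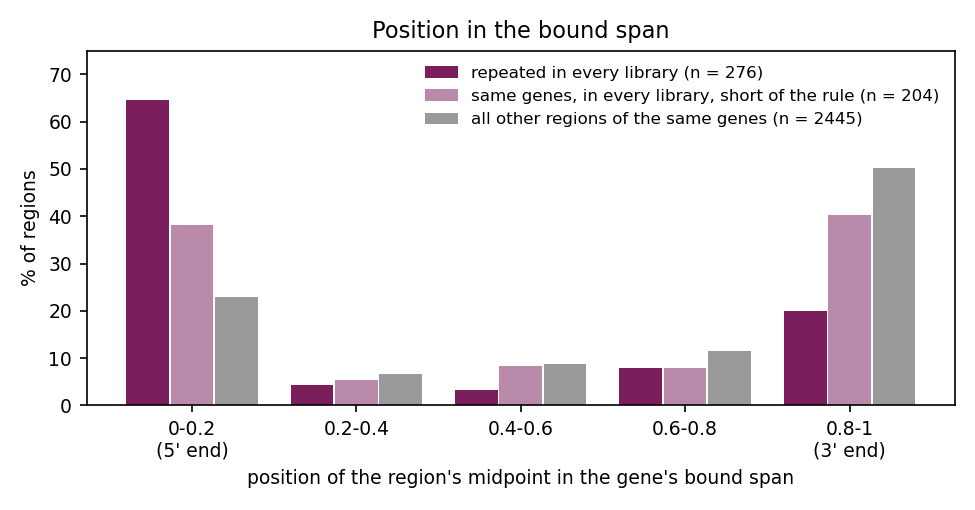
Share of regions (vertical axis, %) by position of the midpoint in the gene's bound span (horizontal axis, 0 at the 5′ end). The first bar of the repeated regions reaches 64.5%, whereas the other regions of the same genes peak at 50.2% at 0.8 or above.

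**Figure D4:**
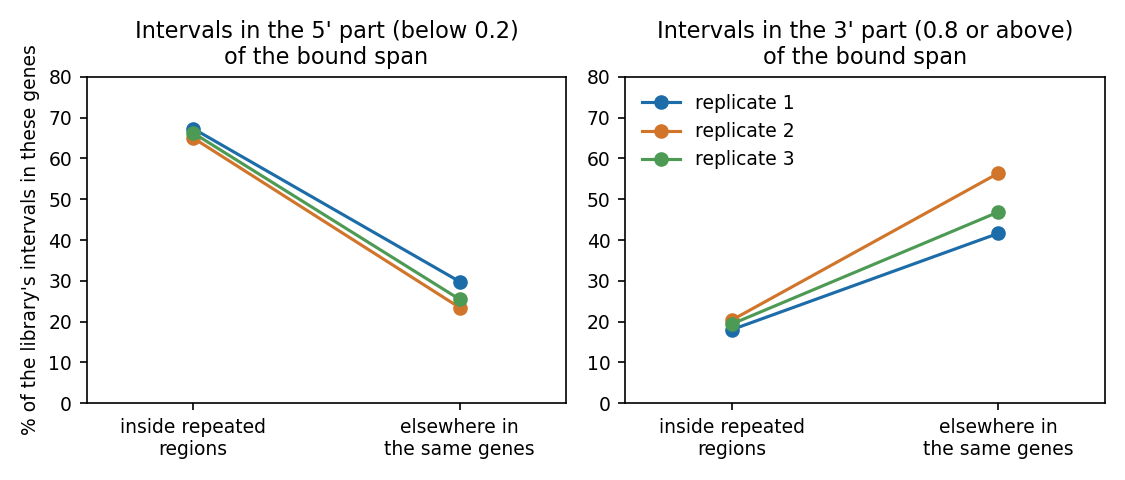
Share of a library's intervals (vertical axis, %) below 0.2 and at 0.8 or above in the bound span, inside the repeated regions and elsewhere in the same genes, with 1 line per library. All 3 lines fall in the left panel and rise in the right panel.

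Other regions with many intervals were less concentrated at the 5′ end. Regions of the same genes with intervals in every library that fell short of the rule had 38.2% of 204 below 0.2 and 40.2% at 0.8 or above. Regions that were not kept but had 5 or more intervals in replicate 2, the median of the kept ones, had 39.8% of 905 below 0.2 and 48.2% at 0.8 or above. These 905 came from all genes with 2 or more regions, so this comparison also differs in the genes. Both kinds were thus nearer to an even split between the ends than the repeated regions were. Among the latter, the 12 with at least 5 intervals in every library had 11 below 0.2 (91.7%), those with a lowest count of 4 had 22 of 27 (81.5%), those with 3 had 30 of 56 (53.6%) and those with 2 had 115 of 181 (63.5%).

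Gene by gene, the repeated regions were nearer the 5′ end on average than the gene's other regions in 184 of 239 genes and nearer the 3′ end in 55. The median difference over genes was -0.52. Among the 203 genes with 5 or more regions, 159 had theirs nearer the 5′ end. In 100 of the 276 regions (36.2%) the repeated region was the first of its gene, against 18.3% of all regions, 5.69% of the other regions of the same genes, and 22 repeated regions that were the last (7.97%).

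In median relative position, the pattern was seen in genes with a long bound span and not in those with a short one. The difference between these classes was not tested. In the 120 genes whose span measured 20000 nt or more, 80.8%, 80.2% and 82.9% of the intervals inside the regions lay below 0.2 in replicates 1, 2 and 3, against 31.2%, 22.6% and 27.9% elsewhere, with a mean difference in median position of -0.82 ± 0.11. In the 83 genes with spans of 5000 to 20000 nt the mean difference was -0.59 ± 0.099. In the 39 genes with spans under 5000 nt it was 0.051 ± 0.14, smaller than its spread, and the differences of single libraries were 0.0032, -0.057 and 0.21 (SD, n = 3 in each class). Whether introns account for the distances was not tested, since no annotation of dm3 was used here.

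To see whether repetition in 2 libraries carried over to the remaining one, regions were rebuilt without each library in turn. Replicates 2 and 3 alone gave 1078 regions with 2 or more intervals in both, and 555 of them had an interval of replicate 1 within 50 nt (51.5%, 95% Wilson interval 48.5 to 54.5). Regions with intervals in both that fell short of 2 in one of them had one in 680 of 3311 cases (20.5%, 19.2 to 21.9). With replicate 3 left out the shares were 86.4% (82.7 to 89.4) of 411 and 55.6% (53.1 to 58.0) of 1570. With replicate 2 left out they were 99.5% (97.2 to 99.9) of 195 and 90.1% (88.2 to 91.7) of 1124. The share was higher for the repeated regions in each case. Among all regions without 2 in both it was 6.77%, 20.7% and 49.0% with replicates 1, 3 and 2 left out. These Wilson intervals take regions as independent and allow for counting error alone. The groups were split by their interval counts, so a higher share is in part built in, and the difference was not tested over libraries. The repeated regions were longer, with medians of 169, 199 and 130 nt against 63, 79 and 52 nt with replicates 1, 3 and 2 left out, so they also offered more room for a hit.

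**Figure D5:**
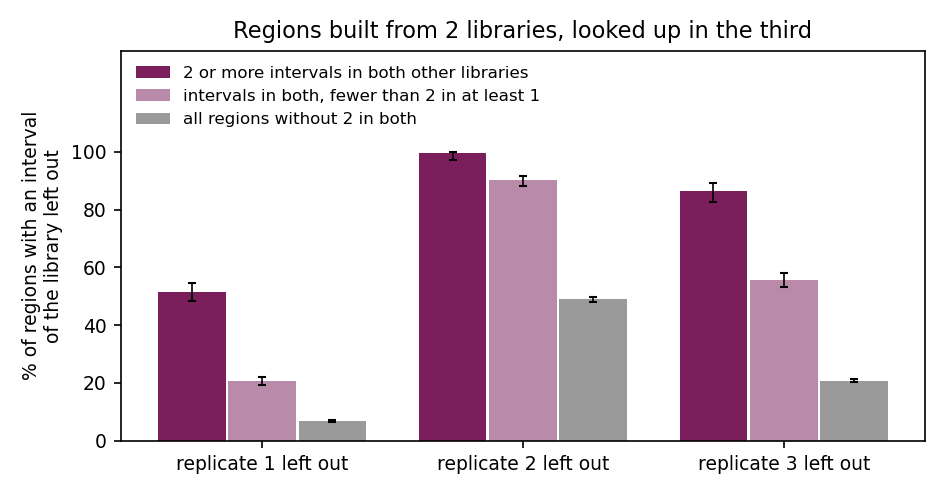
Share of regions built from 2 libraries that had an interval of the library left out within 50 nt (vertical axis, %), for regions with 2 or more intervals in both, for those with intervals in both but fewer than 2 in at least 1, and for all regions without 2 in both. Bars show 95% Wilson intervals, and the first group is highest in each case, with 51.5%, 99.5% and 86.4%.

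Intervals of the library left out that fell in the rebuilt regions also lay near the 5′ end. They were counted as inside when within 50 nt of such a region, so their position largely follows from that of the region. The bound span was still taken from all 3 libraries. The values below are therefore a description and no independent check. Intervals of replicate 1 inside regions built from replicates 2 and 3 had a median position of 0.033, against 0.70 for its other intervals in the same genes. For replicate 2 the medians were 0.034 and 0.83, and for replicate 3 they were 0.024 and 0.76. The mean difference was -0.73 ± 0.064 (SD, n = 3, exact two-sided sign-flip permutation p = 0.25, again the smallest possible).

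The regions were spread over the chromosome arms much as all joined regions were. X held 65 (23.1%, 95% Wilson interval 18.6 to 28.4), 3R 60 (21.4%), 3L 52 (18.5%), 2L 48 (17.1%), 2R 43 (15.3%) and chromosome 4 held 9 (3.203%, 1.69 to 5.97). Of all joined regions, X held 21.3%, 3R 21.2%, 3L 18.6%, 2L 16.6%, 2R 18.6% and chromosome 4 2.46%, each within the Wilson interval of the share above. The mitochondrial genome held 2 and the 3LHet and XHet scaffolds 1 each. The plus strand held 138 regions and the minus strand 143.

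Most genes had a single such region. Of the 244 genes that held most of a region's intervals, 215 had 1, 23 had 2, 4 had 3 and 2 had 4, so 66 regions lay in 29 genes with more than 1. Within 1000 nt on the same strand, 43 regions had another repeated region (15.3%, 95% Wilson interval 11.6 to 19.98). Any other joined region lay that close to 77.9% of them, against 78.6% of all joined regions. The nearest region of any kind was a median of 99 nt away, against 198 nt for all joined regions, and distances of 50 nt or less were removed by joining.

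FBgn0010575 (2R, minus strand) had 4 regions close together at the 5′ end of a span of 78141 nt. From 5′ to 3′ they ran from 14244433 to 14244801 with 3, 6 and 5 intervals in replicates 1, 2 and 3, from 14244250 to 14244354 with 2, 2 and 4, from 14243756 to 14243890 with 2, 7 and 3, and from 14243389 to 14243607 with 3, 6 and 3. The gaps between them were 78, 359 and 148 nt. All 10 intervals of the gene in replicate 1 lay in these regions, against 21 of 45 in replicate 2 and 15 of 26 in replicate 3. In replicate 1 the gene was thus called only in the 1413 nt that these regions span.

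FBgn0263865 (X, minus strand) also had 4, in pairs. The first pair, from 12635900 to 12635995 (4, 2 and 3 intervals) and from 12635493 to 12635674 (4, 4 and 2), began 465 and 786 nt from the 5′ end of a span of 58206 nt. The second pair lay 9351 nt further on, from 12625804 to 12626141 (6, 7 and 7) and from 12625602 to 12625721 (2, 4 and 3), with 82 nt between its members. The 4 regions took 16 of 21, 17 of 66 and 15 of 35 of the gene's intervals in replicates 1, 2 and 3.

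Genes with 3 regions were less alike. FBgn0004652 on 3R had its regions at positions 0.0010, 0.035 and 0.51 of a span of 65762 nt, with 2, 5 and 3, then 3, 7 and 4, then 3, 6 and 2 intervals. FBgn0001624 on X had one of the densest of all at 0.11 (8, 8 and 4 intervals) and 2 lighter ones at 0.50 and 0.53 (2, 2 and 3, then 2, 3 and 4). In these 2 genes the regions reached from the 5′ part to the middle of the span. FBgn0262735 on X had regions at 0.30, 0.76 and 1.00 (4, 2 and 3, then 2, 6 and 2, then 2, 4 and 2 intervals), the last at the very 3′ end. FBgn0262109 on 3L had them within 1628 nt, at 0.43, 0.62 and 0.70 of a span of 5485 nt, with 2 to 4 intervals in each library. Neither of these 2 genes had a repeated region below 0.2.

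Neighbours in a gene were either close or far apart. Of 37 gaps between successive repeated regions of a gene, 22 were at most 1000 nt and 11 were over 5000 nt, with a median of 868 nt and a range of 52 to 48464 nt. The smallest, 52 nt in FBgn0010113 on 3R, was barely over the joining distance. In FBgn0262582 on 3R, FBgn0033636 on 2R and FBgn0002968 on X the regions of a pair lay near opposite ends of the span, at 0.0014 and 1.00, 0.0064 and 1.00, and 0.0071 and 0.94. Their gaps of 48464, 36504 and 33009 nt were the longest.

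Many of the densest regions were the first of their genes. Density was ranked by the interval counts that also chose the regions. The region with the highest mean share of a library's intervals (0.110% ± 0.087, SD, n = 3), in FBgn0262614 on 3R, began at the 5′ end of its gene's span and was the first of 27 regions. Its place rested on replicate 1, the library in which an interval weighs most. Without it the mean share was 0.065% and ranked 2, below the region of FBgn0001234 with 0.074%. Those of FBgn0026869 and FBgn0085432 on chromosome 4, FBgn0035802 and FBgn0001316 on 3L, FBgn0027287 on X, FBgn0032694 on 2L, FBgn0010762 on 3L, FBgn0027548 on 2R and FBgn0039350 on 3R were also first in their genes. Of the 20 regions that ranked highest, 10 were thus first, and of the 20 that did so without replicate 1, 11 were. In genes with 2 or more regions, 36.2% of the repeated regions and 18.3% of all regions were first. A first region need not lie close to the 5′ end, since the midpoint of that of FBgn0027548 was at 0.31. Among the 20, those of FBgn0022893 on 2L and FBgn0000042 on X lay nearest the 3′ end. The region of FBgn0022893, with 6, 8 and 12 intervals, lay at 0.92 and was the last of 5. That of FBgn0000042, from 5798100 to 5798555 with 3, 9 and 12 intervals, lay at 0.88.

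Some regions held a more even share of the libraries than others. FBgn0027548 had the most even share among regions with at least 3 intervals in every library, 0.063% ± 0.011 (SD, n = 3), and it was also the longest region, at 658 nt. FBgn0000253 on 2R followed with 0.058% ± 0.015 (3, 17 and 6 intervals), then FBgn0261461 on X with 0.054% ± 0.020 (3, 13 and 6) and FBgn0027108 on X with 0.053% ± 0.021 (3, 12 and 6). These 3 did not lie at the 5′ end but at 0.94, 0.62 and 0.96 of their spans. The others of this rank, FBgn0003391, FBgn0051163, FBgn0004449, FBgn0010762, FBgn0001234 and FBgn0003090, had SDs of 0.43 to 0.46 of the mean and lay at 0.0017 to 0.12. For regions with 2 intervals in each library the SD was 0.95 of the mean, since the same count is a different share of each library. Evenness likewise goes with few intervals in replicate 1, the smallest library. FBgn0027548, FBgn0000253, FBgn0261461 and FBgn0027108 each had 3 there, the fewest this ranking allowed. The ranking thus follows in part from library size.

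Of the 10 longest regions, 8 were the first in their genes, against 36.2% of the repeated regions in genes with 2 or more regions. They included FBgn0037153 on 3L (635 nt, with 4, 12 and 4 intervals), FBgn0003391 on 2R (630 nt, with 3, 15 and 4), FBgn0036043 on 3L (571 nt, with 3, 8 and 2) and FBgn0003090 on 2R (570 nt, with 3, 10 and 6). The region of FBgn0036043 was long but had no nucleotide covered by every library. The 2 not first were those of FBgn0001234 on 3R, the seventh of 51 regions, and FBgn0261461. Long regions therefore did not need many intervals in the smaller libraries.

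The 10 shortest regions measured 64 to 98 nt. The shortest, in FBgn0000662 on 2R from 9711928 to 9711991, had 3, 2 and 2 intervals and 15 nt covered by every library. FBgn0052320 on 3L followed with 76 nt and 3 intervals in each library. Its region was assigned to FBgn0011854 as well, had 54 nt covered by every library and was the only one of its gene. In FBgn0014020, FBgn0035987, FBgn0085364, FBgn0045761 and FBgn0263392 each library had exactly 2 intervals. In FBgn0031971, FBgn0003884 and the first region of FBgn0263865 the counts were 4, 3 and 2, then 2, 4 and 2, then 4, 2 and 3. Together the 10 regions held 26 intervals of replicate 1, 24 of replicate 2 and 22 of replicate 3, so the large library did not lead there.

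Chromosome 4 is small and largely packaged as heterochromatin. Of its 9 regions, 6 were first in their genes, against 36.2% of the repeated regions and 18.3% of all regions in genes with 2 or more. These were FBgn0026869 (6, 19 and 6 intervals), FBgn0085432 (5, 9 and 9), FBgn0004859 (2, 6 and 3), FBgn0026199 (2, 3 and 4), FBgn0039904 (2, 3 and 3) and FBgn0025741 (2, 3 and 2). FBgn0025726 (2, 2 and 6) lay at 0.085 of its span, FBgn0051992 (3, 3 and 3) at 0.95 and FBgn0052850 (2, 2 and 2) at 0.99. With 9 regions the difference was not tested, and the other regions of chromosome 4 were not compared. The region of FBgn0085813 on XHet had 6, 3 and 3 intervals, fewer in the larger libraries than in replicate 1, and that of FBgn0063670 on 3LHet had 2 in each. On the mitochondrial genome FBgn0013688 had 4, 6 and 3 and FBgn0013686 had 2, 3 and 3 intervals, both on the minus strand.

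Metro, a membrane-associated guanylate kinase gene known from the larval neuromuscular junction, had its region at 7119678 to 7119909 of 2R, minus strand. It held 3, 5 and 2 intervals, which were all of the gene's intervals in replicates 1 and 3 and 5 of 7 in replicate 2, and it began 83 nt from the 5′ end of the span. Swim, known for a secreted protein that binds Wingless, had 2, 3 and 2 intervals from 18077653 to 18077787 of 2R, minus strand. This region lay at 0.97 of its span, near the 3′ end. The 2 genes that could be named thus fell at opposite ends.

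In 6 cases a region was assigned to more than 1 gene, 5 of them to 2 genes and 1 to 3. Beside those of FBgn0052320 and FBgn0026869, shared with FBgn0011854 and FBgn0264618, these were the regions of FBgn0063485 and FBgn0264605, of FBgn0027594 and FBgn0035264, of FBgn0026086 and FBgn0261548, and of FBgn0261592, FBgn0053222 and FBgn0082924. Which gene the RNA came from cannot be told apart there. Inside the 281 regions, 28 intervals overlapped another of the same library.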

How the data were processed

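The authors deposited, for each of 3 iCLIP libraries of one group, a BED list of called intervals with a gene ID, a strand and a score that is 0 in every row. The tools named in the submitters' processing notes are CASAVA 1.4 and TopHat2 2.0.13, and the build is dm3. How peaks were called and annotated, and whether random barcodes removed duplicates, is not given in the sources used here. Intervals were called per library.

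Rows repeating a position and strand (21, 333 and 113 in replicates 1, 2 and 3) were dropped for regions and kept for genes. Intervals at most 50 nt apart on a strand were joined. A region belonged to the gene with most of its rows. The tests were exact sign-flip permutation tests over libraries, two-sided. Joining was checked against bedtools 2.31.1. The finding of regions, their position, shared 5′ edges and the look-up in the library left out were tested on simulated data. The sign-flip test was tried on a case with a known answer, and the other measures were not tested in this way. Software was Python 3.11.15 with pandas 2.3.3, numpy 2.4.6, matplotlib 3.10.9 and scipy 1.17.1.

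The regions, the gene lists and the rule for named items were chosen with earlier results of these data known. The rule names genes with 3 or more regions, the 20 regions of highest mean share, the 10 longest, shortest and most even ones, the 10 genes with most of their intervals inside, and regions on chromosome 4, the Het scaffolds and the mitochondrial genome. Genes with far-apart pairs, multiply assigned regions and the 2 named genes were added after their values were seen. Gene lists by symbol could not be matched and gave no result.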

Additional observations from a re-analysis of the deposited data

How the results depend on the processing

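The 5′ position kept its direction under 11 of 12 alternatives. It reversed to 0.051 in genes with a bound span under 5000 nt, as stated above. The width difference turned to -0.50 nt without replicate 2. The cause of both was not tested. The number of regions (281) became 112 with a joining distance of 10 nt, 96 when 3 intervals per library were required, 1224 when 1 was, 174 with intervals of at least 10 nt and 150 with gaps of 25 nt counted once. The number of genes (250) became 102 and 166 with joining distances of 10 and 25 nt, 94 with at least 3 and 842 with at least 1 interval. The median length (252 nt) was 148.5, 197 and 377 nt with joining distances of 10, 25 and 100 nt, 326 nt with at least 3 and 144 nt with at least 1 interval. The mean share of a library was 27.5% with at least 1 interval. The share with a repeated neighbour (15.3%) was 10.1% with joining at 100 nt, 8.33% with at least 3 and 30.7% with at least 1 interval, and 11.4% within 500 nt. The shared 5′ edges (7.35%) rose to 15.9% within 2 nt and were 1.13% for both edges. Most of these shifts follow from the alternatives' construction.

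With each library left out, regions numbered 195 to 1078, genes 166 to 819, and the median length was 130 to 199 nt. The mean share was 9.36% to 19.6%, the share with a repeated neighbour 16.1% to 24.1%, shared edges 6.55% to 8.44%, the position difference -0.79 to -0.69, the width difference -0.50 to 6 nt and the repeat in the library left out 68.9% to 92.9%. The largest counts came without replicate 1. Of 432 alternative values for 72 single regions, 402 stayed within the SD between libraries. This SD is wide, since the libraries differ in size, and leaving out a library cannot move the mean of 3 beyond it. The count therefore says little about stability. The mean share of the region of FBgn0262614 counted as kept at 0.044% with a joining distance of 10 nt, against 0.110%. Alternatives on gaps, on short spans, on widths against regions in every library and on positions in the library left out were chosen after seeing the data. No paired analysis was possible because there is a single group.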
